A study of Homo sapiens with 4 samples.

Results

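The subunit genes of the phagocyte NADPH oxidase were examined in RNA-seq data of MV4-11, a human acute myeloid leukemia (AML) cell line of myelomonocytic type. The members were all RefSeq rows of the expression table with the symbols CYBB, CYBA, NCF1, NCF4, RAC1 and RAC2. These 8 rows gave 6 genes of the 16490 genes with values, and FPKM (fragments per length of transcript, scaled to the mapped reads of the library) was summed over the rows of a gene. There were 2 libraries of control cells with the hairpin sh-NC and 2 libraries of cells with sh-CEBPG#3, which targets CEBPG, a bZIP transcription factor of the C/EBP family. Both groups were MV4-11 cells infected with a pLKO.1-puro lentivirus and selected with puromycin, 1 hairpin against CEBPG was sequenced, and the time from infection to RNA harvest was not given in the sources used here. Whether infections were separate for each library is not stated, so the p-values measure only the spread between these libraries.

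The oxidase is the enzyme with which neutrophils and macrophages make superoxide, from which microbicidal oxidants are formed. Its membrane part, flavocytochrome b558, is a heterodimer of gp91-phox (NOX2, encoded by CYBB), which carries electrons from NADPH to oxygen, and p22-phox (encoded by CYBA), which stabilizes gp91-phox and provides the docking site. In resting cells the organizer p47-phox (NCF1) and p40-phox (NCF4) wait in the cytosol, and upon stimulation they move to the membrane together with a GTP-bound Rac protein (RAC1 or RAC2). Loss of gp91-phox, p22-phox, p47-phox or p40-phox causes chronic granulomatous disease. In myeloid cells several of the subunit genes are known to be turned on during maturation and by interferon-gamma.

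CEBPG itself had 30.4 and 33.6 FPKM with sh-NC and 19.2 and 17.1 FPKM with sh-CEBPG#3, so the hairpin left 0.568 of the control level. With 1 hairpin, loss of CEBPG and other effects of that hairpin cannot be told apart. FPKM totals lay between 364353 and 389766 per library, and the read depth is unknown because FPKM carries no counts. Myeloid markers were present in all libraries, among them CD33, ELANE and LYZ, with a summed level of 1519 to 1661 FPKM in sh-NC cells and 4782 to 5043 FPKM in sh-CEBPG#3 cells for the 9 markers. Of these, 8 were tested and 6 were higher upon knockdown at a limma adjusted p under 0.05, as were 18.5% of all tested genes. LYZ (lysozyme) rose most, with a log2 fold change of 2.37. CD14 was too low to be tested, with 0.187 and 0 FPKM in sh-NC and 1.09 and 0.697 FPKM in sh-CEBPG#3, higher in both. Of 8 markers of other cell types 2 were listed with values, and their sum was at most 0.336 FPKM in any library. Of the tested myeloid markers, FLT3 (log2 fold change -0.14, limma adjusted p = 0.161) and ITGAM (0.09, limma adjusted p = 0.451) did not pass. LYZ and ELANE made up most of the summed level. Their means were 589 and 744 FPKM with sh-NC and 3054 and 1531 FPKM with sh-CEBPG#3. Most but not all tested myeloid markers thus rose alongside the results below, and their part in them was not tested. Less RNA per cell and fewer cells with that RNA cannot be told apart in bulk samples.

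Upon CEBPG knockdown the oxidase genes did not move as 1 unit. NCF1 rose 3.93-fold and CYBB 4.74-fold in mean FPKM, RAC1 rose 1.49-fold, CYBA fell slightly, and NCF4 and RAC2 did not pass the test. On the log2(FPKM + 1) scale, in limma over the 12142 genes whose mean reached 0.5 FPKM, 3 of the 6 genes were higher at a Benjamini-Hochberg adjusted p under 0.05, where 18.5% of all tested genes were, and 1 was lower, where 23.8% of all tested genes were. The cutoffs of the study, set there for DESeq2, were applied here to limma (log2 fold change beyond 1 in size, unadjusted p below 0.05). Of the 6 genes, 2 were higher (2.36% of all tested genes) and 0 were lower (1.05% of all tested genes). The median log2 fold change of the 6 genes was 0.20, and that of all tested genes was -0.04. CYBB passed the filter on low values through the sh-CEBPG#3 libraries, since its mean in sh-NC cells was 0.457 FPKM.

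**Figure D1:**
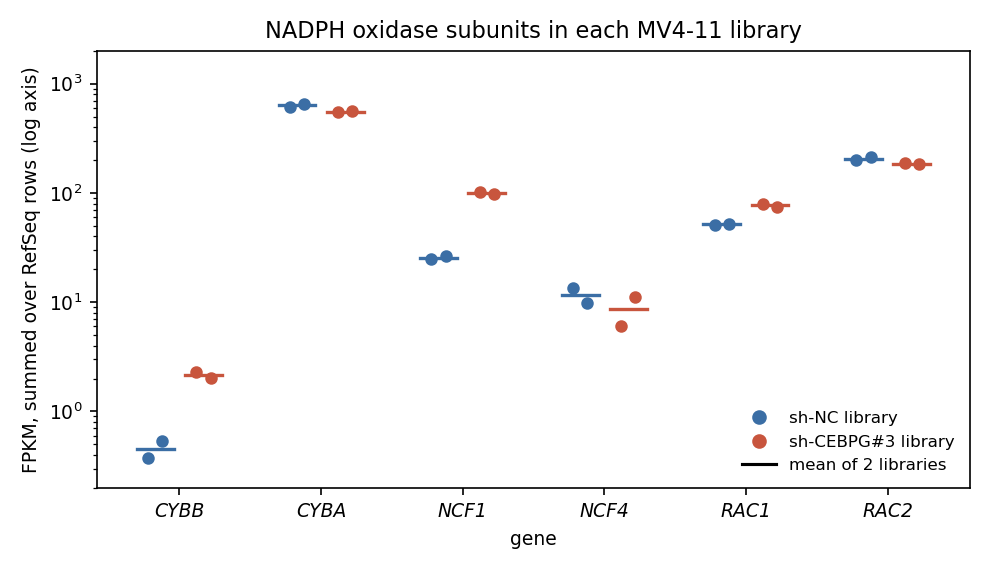
FPKM of the 6 oxidase subunit genes (log axis) in each of the 4 MV4-11 libraries; points are libraries and bars are means of 2 libraries. CYBB, NCF1 and RAC1 lie higher with sh-CEBPG#3 than with sh-NC without overlap, and the NCF4 groups overlap.

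In sh-NC cells the levels of the subunit genes spanned more than 3 orders of magnitude on the FPKM scale, which is per length and allows genes to be set side by side. The order of the mean levels was CYBA, RAC2, RAC1, NCF1, NCF4 and CYBB, and no neighbours in that order overlapped between their libraries. In sh-CEBPG#3 cells NCF1 and RAC1 exchanged places, and the other genes kept their order. The place of NCF1 depends on how reads were split between it and its copies NCF1B and NCF1C, described below. Summed with these copies, NCF1 had 91.6 and 100.7 FPKM with sh-NC, already above RAC1 with 51.3 and 52.0 FPKM. The ratio of NCF1 to RAC1 was 0.485 and 0.506 with sh-NC and 1.30 and 1.32 with sh-CEBPG#3. The Rac genes came closer to each other, as RAC2 was 3.88 and 4.10 times RAC1 in sh-NC cells and 2.39 and 2.44 times RAC1 in sh-CEBPG#3 cells.

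CYBB (chromosome X, 37780059 to 37813461, plus strand, RefSeq annotation on GRCh38.p14) encodes the catalytic subunit and was the least abundant of the 6. Its single row, NM_000397, had 0.377 and 0.537 FPKM with sh-NC and 2.30 and 2.03 FPKM with sh-CEBPG#3. Both knockdown libraries lay above both controls, with means of 0.457 ± 0.113 FPKM and 2.16 ± 0.189 FPKM (SD, n = 2 each). The log2 fold change was 1.12 (standard error 0.13, limma adjusted p = 0.000116), and on this scale the change of such a low gene is understated, with 2.04 at a pseudocount of 0.1 in place of 1. With the increase included, CYBB stood low, and 11.2% of the tested genes had a lower mean level over the 4 libraries.

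CYBA (chromosome 16, 88643289 to 88651053, minus strand), the partner of CYBB in the membrane, was the most abundant of the 6. Its row NM_000101 had 617 and 646 FPKM with sh-NC and 550.1 and 556 FPKM with sh-CEBPG#3. The groups did not overlap and the decrease was small, with a log2 fold change of -0.19 (standard error 0.07, limma adjusted p = 0.0439), which was lower in 2 of 2 knockdown libraries. This call was lost without a filter on low values (limma adjusted p = 0.0944) and with a replicate block (limma adjusted p = 0.218). It was also lost with the most abundant RefSeq row standing for each gene in a fit of all rows (limma adjusted p = 0.123). Leaving out sh-NC replicate 2, sh-CEBPG#3 replicate 1 or sh-CEBPG#3 replicate 2 removed it too. CYBB thus rose, while the small decrease of CYBA did not keep its call. A lower log2 fold change than that of CYBA was found for 32.7% of the tested genes. CYBA exceeded CYBB 1639- and 1204-fold with sh-NC and 239- and 274-fold with sh-CEBPG#3.

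NCF1 (chromosome 7, 74774011 to 74789315, plus strand) encodes the organizer p47-phox, whose phosphorylation starts assembly, and it changed most of the 6 on the log2(FPKM + 1) scale, while CYBB changed more in the ratio of means and at pseudocounts of 0.1 and 0.01 (2.04 and 2.24 against 1.97 and 1.98 for NCF1). Its row NM_000265 had 24.9 and 26.3 FPKM with sh-NC and 103 and 98.5 FPKM with sh-CEBPG#3. The means were 25.6 ± 0.991 FPKM and 100.6 ± 3.03 FPKM (SD, n = 2 each), far apart relative to the spread within a group. The log2 fold change was 1.94 (standard error 0.07, limma adjusted p = 5.7e-08), and 99.5% of the tested genes had a smaller one.

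NCF1 has 2 pseudogene copies on the same chromosome, NCF1B (73220639 to 73235945) and NCF1C (75156578 to 75171998), with which it can share reads. A coding stretch of the NCF1 transcript ENST00000289473.11 (GENCODE, hg38) that crosses from exon 1, ending at 74774103, into exon 2, starting at 74777267, is shown with that of the NCF1C transcript ENST00000438382.2 because NCF1C lacks 1 of the GT repeats there. Capitals mark the GT repeat:
NCF1: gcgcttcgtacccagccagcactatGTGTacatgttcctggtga
NCF1C: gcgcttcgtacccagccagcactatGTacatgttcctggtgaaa
Over the 1349 bases of the NCF1 transcript, NCF1C was the same at 1339 of 1347 aligned bases (99.4%), with 8 mismatches and 1 gap of 2 bases. The annotated NCF1B transcript ENST00000435988.1 was the same at 1155 of 1167 aligned bases (99.0%), with 12 mismatches. It had no gap at that place, and its several gaps, of 3 to 24 bases, lay farther along the coding sequence. The percentages do not count gaps. Of all windows of 100 bases in the NCF1 transcript, 63.5% were found unchanged in an annotated transcript of NCF1B or NCF1C, and of windows of 50 bases 83.9%. How reads that match several places were assigned was not given in the sources used here, so the 3 levels are uncertain.

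The copies were listed at levels as high as the gene. NCF1B (NR_003186) had 27.4 and 29.5 FPKM with sh-NC and 111 and 104 FPKM with sh-CEBPG#3. NCF1C (NR_003187) had 39.3 and 44.9 FPKM in sh-NC and 191 and 180.0 FPKM in sh-CEBPG#3. The log2 fold changes were 1.88 for NCF1B and 2.12 for NCF1C, each higher in both knockdown libraries, at a limma adjusted p of at most 9.06e-08. The share of NCF1 in the summed FPKM of the 3 loci was 27.2% and 26.1% with sh-NC and 25.4% and 25.7% with sh-CEBPG#3, so the split between the loci moved little while the sum rose from 91.6 and 100.7 FPKM to 405 and 383 FPKM. When the 3 loci were tested as 1 gene, a choice made after the values were seen, the log2 fold change was 2.02 (limma adjusted p = 4.78e-08). The increase was therefore present whether the reads were split or pooled, and which of the 3 loci carried it cannot be told from these values.

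**Figure D2:**
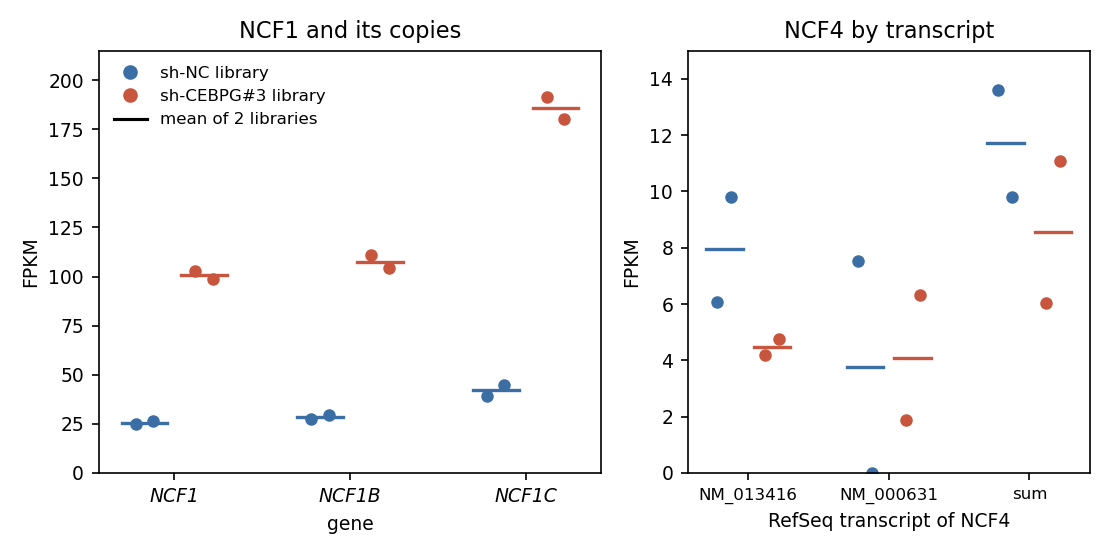
FPKM per library (points) and group means (bars, n = 2) for NCF1, NCF1B and NCF1C (left) and for the 2 RefSeq transcripts of NCF4 and their sum (right). All 3 NCF1 loci are higher in both sh-CEBPG#3 libraries, and the transcripts of NCF4 vary between libraries of a group.

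The region before the transcript start is shown for the subunit genes with the largest increases, NCF1 and CYBB, and for CYBA, which was slightly lower. These were the 3 of the 6 genes matched in the RefSeq promoter table (GRCh38.p14). Which of NCF1, NCF1B and NCF1C carried the increase cannot be told, and the regions before the copies are not shown. The 250 bases upstream of each start were searched on both strands for GAGGAA (the core of PU.1 sites), the pair GAAA and GAAA with NN between them (as in interferon-stimulated response elements, ISRE-like below), TTCNNNGAA (gamma-activated sites), TTGCNNAA (C/EBP sites), TGATGNAA (C/EBP-ATF sites) and CCAAT (NF-Y sites), a search chosen after the values were seen. Capitals mark the matches:
NCF1, chr7:74773761-74774010, plus strand: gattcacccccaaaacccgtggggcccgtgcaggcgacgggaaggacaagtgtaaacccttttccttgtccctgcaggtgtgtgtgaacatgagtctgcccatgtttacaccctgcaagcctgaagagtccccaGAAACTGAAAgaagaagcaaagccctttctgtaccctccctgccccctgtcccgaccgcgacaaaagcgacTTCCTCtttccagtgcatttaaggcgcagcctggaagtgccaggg
CYBB, chrX:37779809-37780058, plus strand: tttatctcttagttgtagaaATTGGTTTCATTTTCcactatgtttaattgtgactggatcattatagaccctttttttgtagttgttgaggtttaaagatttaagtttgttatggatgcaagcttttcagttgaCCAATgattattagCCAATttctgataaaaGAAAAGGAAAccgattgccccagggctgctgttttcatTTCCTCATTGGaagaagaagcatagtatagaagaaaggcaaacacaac
CYBA, chr16:88651054-88651303, minus strand: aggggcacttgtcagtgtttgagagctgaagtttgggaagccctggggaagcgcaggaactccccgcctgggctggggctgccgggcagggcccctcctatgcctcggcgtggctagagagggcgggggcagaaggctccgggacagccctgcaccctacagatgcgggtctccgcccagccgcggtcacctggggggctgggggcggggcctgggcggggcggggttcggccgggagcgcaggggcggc
The NCF1 window held the PU.1 core at 45 bases and the ISRE-like motif at 116 bases before the start (counted to the first base of the match). The CYBB window held the PU.1 core at 48 bases, the ISRE-like motif at 225 and 86 bases, and CCAAT at 230, 116, 102 and 42 bases before the start. In CYBB a CCAAT match directly adjoins the PU.1 core and another adjoins an ISRE-like match, so their capitals run together. None of the 6 motifs matched in the CYBA window, which had a GC content of 73.6% against 56.4% for NCF1 and 34.0% for CYBB. Of the 35116 promoter windows of this length in the table, 23.6% held GAGGAA, 3.02% held the ISRE-like motif, 0.854% both of these motifs, 32.0% CCAAT, 6.57% TTCNNNGAA, 9.05% TTGCNNAA and 3.14% TGATGNAA. Letters alone do not show binding, and no occupancy was measured here.

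NCF4 (chromosome 22, 36861006 to 36878015, plus strand) encodes p40-phox, which binds phosphatidylinositol 3-phosphate on phagosomes. Summed over its 2 rows it had 13.6 and 9.81 FPKM with sh-NC and 6.05 and 11.1 FPKM with sh-CEBPG#3, so the groups overlapped. The log2 fold change was -0.45 with a 95% confidence interval from -0.93 to 0.04 (limma adjusted p = 0.123), an interval that includes 0. The 2 rows differed between libraries of the same group. NM_000631 had 7.53 and 0.00219 FPKM with sh-NC and 1.86 and 6.33 FPKM with sh-CEBPG#3. NM_013416 had 6.09 and 9.81 FPKM in sh-NC and 4.19 and 4.77 FPKM in sh-CEBPG#3, without overlap. Tested in a fit of all rows, NM_013416 had a log2 fold change of -0.68 (limma adjusted p = 0.164). Single libraries decided the NCF4 log2 fold change. It was -0.66 without sh-NC replicate 2, -0.83 without sh-CEBPG#3 replicate 2, -0.23 without sh-NC replicate 1 and -0.056 without sh-CEBPG#3 replicate 1.

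The Rac GTPases provide the switch that activates the assembled oxidase, RAC2 being the form typical of blood cells and RAC1 being expressed in most cells. RAC1 (chromosome 7, 6374527 to 6403967, plus strand) had 51.3 and 52.0 FPKM with sh-NC and 78.9 and 74.7 FPKM with sh-CEBPG#3. It was higher in both knockdown libraries, with a log2 fold change of 0.56 (standard error 0.07, limma adjusted p = 0.000182). Nearly all of it came from NM_006908, and NM_018890, the splice form Rac1b, was listed at 1.13 and 0.240 FPKM in sh-NC and at 0.0177 and 0.424 FPKM in sh-CEBPG#3, with overlap. RAC2 (chromosome 22, 37225270 to 37244269, minus strand, NM_002872) had 199 and 213 FPKM with sh-NC and 188 and 182 FPKM with sh-CEBPG#3. The groups did not overlap, but the log2 fold change of -0.15 (95% confidence interval -0.31 to 0.00163) did not pass, with a limma adjusted p = 0.102. It passed when the libraries were scaled to equal totals (-0.18, limma adjusted p = 0.00413) and with quantile normalization (-0.21, limma adjusted p = 0.00217). Without sh-NC replicate 1 the RAC2 log2 fold change was -0.20.

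By non-overlap alone, 3 of the 6 genes were higher in both knockdown libraries (31.5% of all tested genes were) and 2 were lower in both (40.2% of all tested genes were). The increases of NCF1, CYBB and RAC1 kept their direction and their call in every alternative run. CYBA, RAC2 and NCF4 did not keep the same call throughout.

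**Figure D3:**
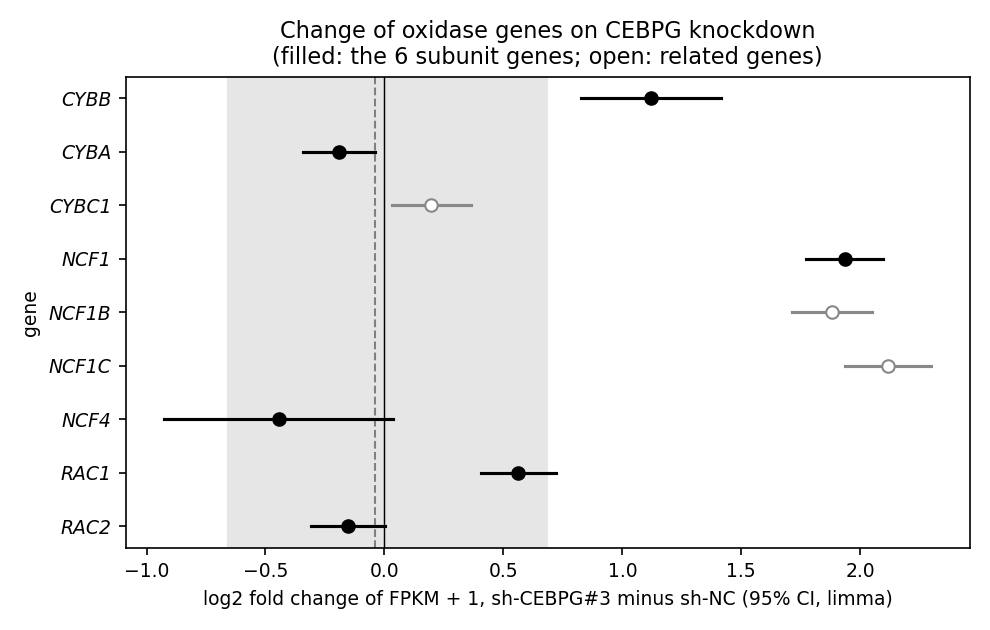
Log2 fold change of FPKM + 1 (sh-CEBPG#3 minus sh-NC) with 95% confidence intervals from limma for the 6 subunit genes (filled) and 3 related genes (open). Grey covers the central 90% of all tested genes (5th to 95th percentile), the dashed line is their median, and NCF1 and its copies and CYBB lie to the right of the grey range.

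A list of 13 relatives and assembly genes of the oxidase included CYBC1, the chaperone (EROS) needed for gp91-phox. CYBC1 had 56.9 and 60.1 FPKM in sh-NC and 69.6 and 64.8 FPKM in sh-CEBPG#3. Its log2 fold change of 0.20 did not pass (limma adjusted p = 0.0571). It did with quantile normalization and with equal totals (0.17 each, limma adjusted p = 0.0126 and 0.0127), and it was 0.24 without sh-NC replicate 2. NOXA1, an activator of nonphagocytic oxidases, had 1.62 and 1.38 FPKM in sh-NC and 3.67 and 3.14 FPKM in sh-CEBPG#3. It was higher in both knockdown libraries, with a log2 fold change of 0.82 (limma adjusted p = 0.000444) that did not pass by its most abundant RefSeq row (limma adjusted p = 0.168). NOX1, NOX5, NOXO1 and DUOX1 stayed below the filter, at no more than 0.597 FPKM in any library, and NOX3, NOX4, DUOX2, DUOXA1 and DUOXA2 had no values in the table.

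The genes around the oxidase were counted in 5 further lists, read against the 18.5% higher and 23.8% lower among all tested genes. Over all 6 lists 23 genes were higher and 14 lower. When the most abundant RefSeq row stood for each gene, these were 8 and 1. In that fit 0 of the triggering receptors and 0 of the kinases and lipid enzymes were called. It called fewer genes in general, 10.7% of the 11992 it tested, and 49.8% of its calls were higher. Of 6 tested receptors that trigger the burst, 4 were higher and 0 lower. They were led by ITGB2, the common chain of the leukocyte integrins, with a log2 fold change of 0.88, and TLR2 with 0.69. C5AR1, another of the 4, passed the filter on low values only through the sh-CEBPG#3 libraries. It had 0.468 and 0.397 FPKM in sh-NC and 1.06 and 1.08 FPKM in sh-CEBPG#3. With a filter at 1 FPKM, 3 receptors were higher. Of 14 genes of oxidant handling and NADPH supply, 7 were higher and 3 lower. SOD2, the mitochondrial superoxide dismutase, had 28.9 and 33.3 FPKM in sh-NC and 71.8 and 68.8 FPKM in sh-CEBPG#3 (log2 fold change 1.15). CAT (catalase) rose by 1.14 and MPO (myeloperoxidase) by 0.62 on the log2 scale, and PRDX2, a peroxiredoxin, fell by 0.84. HVCN1, the proton channel that balances the charge moved by the oxidase, fell by 0.27 (limma adjusted p = 0.0265), a call lost in 7 alternatives, each single library left out in turn except sh-NC replicate 2 among them. The genes named here other than HVCN1 and C5AR1 (adjusted p = 0.00979) passed in limma with an adjusted p no larger than 0.00063. ITGB2 and TLR2 did not pass when the most abundant RefSeq row stood for the gene (limma adjusted p = 0.0687 and 0.0575).

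The kinases and lipid enzymes listed for activation of the oxidase showed no common direction, with 3 of 13 higher and 5 lower. Of 11 tested genes of the Rac and Rap switch, 3 were higher and 3 lower. ARHGDIB, the inhibitor that holds Rac proteins in the cytosol of blood cells, rose by 0.47 and ABR, a GTPase-activating protein for Rac, fell by 0.74 on the log2 scale, the latter not passing by its most abundant row (adjusted p = 0.382). Of 11 transcription factors known from oxidase promoters, 4 were higher and 3 lower. SPI1 (PU.1) rose by 0.33 (limma adjusted p = 0.00732) and IRF8 by 0.44 (adjusted p = 0.000727), whereas IRF1 had a log2 fold change of 0.12 (adjusted p = 0.265). The SPI1 call was lost without sh-CEBPG#3 replicate 1 (adjusted p = 0.12) and by its most abundant row (adjusted p = 0.173). Whether these factors had a part in the changes of the subunit genes was not tested.

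**Figure D4:**
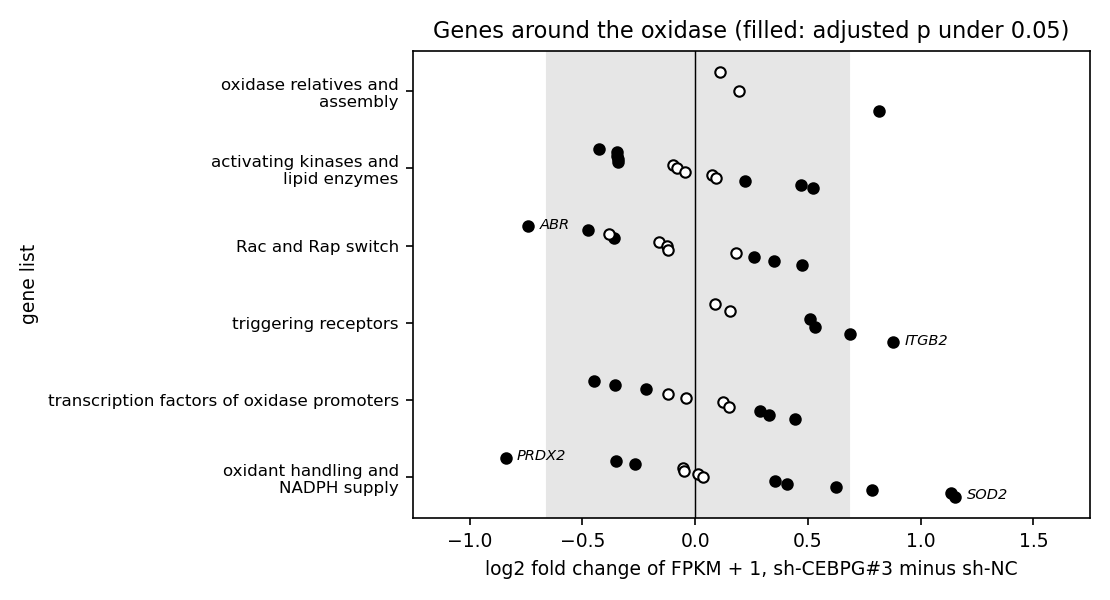
Log2 fold change of FPKM + 1 (sh-CEBPG#3 minus sh-NC) of the tested genes reported here (points) in 6 lists around the oxidase; filled points have an adjusted p under 0.05 and grey covers the 5th to 95th percentile of all tested genes. SOD2 at 1.15 and CAT at 1.14 lie farthest to the right.

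The genes with a pattern most like that of NCF1 over the 4 libraries were found by the root mean square difference of centred log2(FPKM + 1) values. The 5 nearest were TGM3 (0.0159), CXCL11 (0.0170), UBE2L6 (0.0289), NCF1B (0.0297) and HELZ2 (0.0390). Their log2 fold changes lay between 1.88 for NCF1B and 1.96 for UBE2L6, close to that of NCF1 by the way they were chosen. NCF1B can share reads with NCF1. TGM3 and CXCL11 were low in sh-NC cells, with means of 0.438 and 0.254 FPKM, and passed the filter only through the sh-CEBPG#3 libraries. The likeness of TGM3 and CXCL11 to NCF1 rests on the pseudocount of 1. Their ratios of means were 10.4 and 15.1 against 3.93 for NCF1, and at a pseudocount of 0.1 their log2 fold changes were 3.11 and 3.48 against 1.97 for NCF1.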

How the data were processed

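RNA-seq of 2 sh-NC and 2 sh-CEBPG#3 libraries of MV4-11 cells was analysed, with groups and replicate numbers taken from the sample titles. After read filtering and mapping with HISAT, the authors deposited FPKM values per RefSeq transcript. The submitters' processing notes name HISAT2 2.0.5 and hg38, and the program that computed FPKM is not given in the sources used here. The methods of the study name DESeq2, which needs counts and was not run. Of 28780 rows, 199 had no values. Among 565 low genes no more than 1.42% shared 1 ratio between the sh-NC libraries, so no steps of whole reads were seen and no interval or floor is given.

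FPKM was summed per gene, and log2(FPKM + 1) was fitted with limma 3.58.1 in R 4.3.3 (trend, no block) over all 12142 genes whose mean reached 0.5 FPKM, with Benjamini-Hochberg adjustment. On simulated data of 12142 genes for this comparison, 200 genes were changed by a log2 fold change of 1 or 2 in size, with an assumed noise. Of those that passed the filter again, 94.9% were recovered in the right direction at an adjusted p under 0.05. Smaller changes, such as that of CYBA, were not simulated. With 2 against 2 libraries an exact two-sided permutation test cannot go below 0.333. The fit was repeated with quantile normalization, with equal totals, with a filter at 1 FPKM or none, with pseudocounts of 0.1 or 0.01, by the most abundant row per gene, with a replicate block and without each library. Transcripts were aligned with Biopython 1.88 in Python 3.11.15.

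The members, lists and tests were chosen with earlier results of these data known. Named genes were all members, CEBPG, list genes past an adjusted p of 0.05 with a log2 fold change beyond 1 in size, SPI1, IRF1, IRF8, CYBC1, MPO, SOD2, HVCN1 and the 5 genes nearest to the member with the largest log2(FPKM + 1) change. ITGB2, TLR2, C5AR1, NOXA1, PRDX2, ARHGDIB, ABR and the markers were named after their values were seen. Some list genes are not reported here, and the counts of the lists include them.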

Additional observations from a re-analysis of the deposited data

How the results depend on the processing

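The calls and directions of NCF1, CYBB and RAC1 were the same in all alternatives. With all libraries in the fit, NCF1 lay at 1.90 to 2.02, CYBB at 1.11 to 2.24 and RAC1 at 0.53 to 0.58 (log2 fold change). The decrease of CYBA (-0.19) was not called without a filter, with the replicate block or by the most abundant row, and lay between -0.22 and -0.16 when 1 library was dropped. RAC2 (-0.15) was called at -0.21 with quantile normalization and -0.18 with equal totals. When 1 library was dropped it lay between -0.20 and -0.11 and was called only at -0.20, without sh-NC replicate 1. NCF4 was called with the replicate block (-0.45, limma adjusted p = 0.00104). It was also called in some but not all fits with 1 library dropped, where it lay between -0.83 and -0.056. The count of lower subunit genes, 1, was 2 with quantile normalization or equal totals, 0 without a filter or by the most abundant row, and 0 to 2 with a library left out. The median of the 6 genes was 0.16 with quantile normalization.

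Over the 6 lists, 23 genes were higher and 14 lower. By the most abundant row these were 8 and 1, without a filter 7 were lower, and with a library left out 6 to 13 were lower. No result reversed. The correlation of deviations between same-numbered libraries was 0.0606, so the replicate block was not used as evidence of pairing; with it, 21 list genes were higher and 13 lower. A library left out leaves 1 in its group, which is then assumed to vary like the other group. With the replicate block, or without a sh-NC library, the fit took the variance of each gene from the trend alone. The gene's own spread between libraries then did not enter its p-value. Why these values moved was not tested. Low genes such as CYBB cannot be weighted by depth, which is unknown.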
